A study of Homo sapiens with 4 samples.

Results

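A set of 9 genes of retinoid metabolism was followed through the response of 2 human cell lines to estrogen: DHRS3, RDH10, RDH11, ALDH1A1, ALDH1A3, CYP26A1, CYP26B1, CRABP1 and CRABP2. These 9 members were looked up by symbol among the 33540 features of the Ishikawa matrix and the 33538 of the T-47D matrix, and each symbol had 1 row in both. The set was chosen by measured values, since the E2 change of DHRS3 against 0 h had been seen in these data before, so levels and changes are given as a description and none was tested. No threshold was used to choose members.

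Ishikawa is an endometrial adenocarcinoma line and T-47D a ductal carcinoma line of the mammary gland. Cells were held in hormone-depleted medium and then received 10 nM 17β-estradiol (E2) for 2, 4 or 8 h, or DMSO vehicle as the 0 h group. Cells of the 4 times of a line were tagged with MULTI-seq membrane barcodes, mixed, and read as 1 droplet library per line, which counts unique molecular identifiers (UMIs), each marking 1 captured transcript. Kept cells were summed into 8 pools, 1 for each line and time, so every comparison is of 1 pool against 1 pool with no replicate and every contrast of a line shares its 0 h pool. Whether the cells of a time came from more than 1 dish is not given in the sources used here.

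Vitamin A is carried in cells as retinol, which is oxidized to retinaldehyde and then, irreversibly, to retinoic acid, the ligand of the nuclear retinoic acid receptors. RDH10 makes retinaldehyde, RDH11 and DHRS3 are reductases that turn it back to retinol, and the ALDH1A enzymes make retinoic acid. The CYP26 hydroxylases destroy retinoic acid, CRABP1 and CRABP2 bind it in the cytosol, and CRABP2 is known for handing it to the receptors. DHRS3 and CYP26A1 are themselves known as genes that retinoic acid induces.

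Promoter windows of 300 bases, from 250 bases before to 50 after a RefSeq start site (GRCh38.p14), were available for 8 of the 9 members, with 11 windows in all because DHRS3 has 3 and CYP26A1 has 2. They were searched on both strands for the receptor half-site AGGTCA and for 3 close forms of it, first AGTTCA, next GGTTCA and lastly GGGTCA. At least 1 half-site lay in 4 of the 11 windows, beside 38.6% of the 34943 human windows searched. The windows of 3 members are shown, DHRS3 as the gene whose level differed most between time points, CYP26A1 as a known target of retinoic acid, and CRABP2 as the abundant member with the widest gap between the lines. Each runs 5′ to 3′ on the strand of its gene, with half-sites of either strand in capitals.
DHRS3, chr1:12618161-12618460, minus strand: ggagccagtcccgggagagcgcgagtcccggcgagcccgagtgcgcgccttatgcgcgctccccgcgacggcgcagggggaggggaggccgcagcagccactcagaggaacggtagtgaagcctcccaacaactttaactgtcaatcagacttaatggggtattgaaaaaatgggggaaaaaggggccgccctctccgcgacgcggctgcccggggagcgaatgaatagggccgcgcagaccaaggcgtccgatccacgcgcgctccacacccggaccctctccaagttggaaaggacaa
CYP26A1, chr10:93073643-93073942, plus strand: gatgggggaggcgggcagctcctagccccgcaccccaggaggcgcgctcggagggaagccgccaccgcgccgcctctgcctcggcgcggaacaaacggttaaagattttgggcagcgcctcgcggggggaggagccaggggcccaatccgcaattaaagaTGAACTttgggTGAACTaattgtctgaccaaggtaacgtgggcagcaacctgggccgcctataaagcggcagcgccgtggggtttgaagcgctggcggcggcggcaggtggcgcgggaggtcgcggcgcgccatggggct
CRABP2, chr1:156705735-156706034, minus strand: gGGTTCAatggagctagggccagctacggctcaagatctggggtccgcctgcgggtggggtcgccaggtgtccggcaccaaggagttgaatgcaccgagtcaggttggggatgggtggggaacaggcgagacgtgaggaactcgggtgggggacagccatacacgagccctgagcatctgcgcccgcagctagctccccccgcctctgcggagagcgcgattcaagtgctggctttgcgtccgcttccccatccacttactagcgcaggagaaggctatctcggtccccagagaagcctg

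The first start site of DHRS3 held none of the 4 half-sites. Its other windows held 1 each, GGTTCA 172 bases before the start at chr1:12616740-12617039 and AGGTCA, on the opposite strand, 171 bases before the start at chr1:12596564-12596863. The CYP26A1 window above held AGTTCA on the opposite strand (read as TGAACT) 90 and 79 bases before the start, 2 copies in 1 direction with 5 bases between them. Any 2 of the 4 half-sites in that arrangement occurred in 31 of the 34943 windows (0.0887%). The other CYP26A1 window, chr10:93073225-93073524, held none of the 4 half-sites. The CRABP2 window held GGTTCA 249 bases before the start. The palindromic core of the estrogen response element, GGTCA followed after 3 bases by TGACC, lay in none of the 11 windows and in 20 of all windows (0.0572%). A match is a run of letters and not a bound site, and a missing match says only that the letters were not in the window.

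The whole gene DHRS3 lies at chr1:12567910-12618210, RDH11 at chr14:67676800-67695764, ALDH1A1 at chr9:72900671-72953053 and ALDH1A3 at chr15:100879831-100916626 (RefSeq, GRCh38.p14). CYP26A1 lies at chr10:93073475-93077885, CYP26B1 at chr2:72129238-72147862, CRABP1 at chr15:78340353-78348225 and CRABP2 at chr1:156699606-156705784. The Ishikawa and T-47D counts were made on hg38 per the submitters' processing notes, which shares its chromosome coordinates.

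Depth allowed firm values for the abundant members and weak ones for the rest. The Ishikawa pools held 776 to 1480 cells and 15305038 to 30994433 UMIs, and the T-47D pools 553 to 1525 cells and 12927799 to 33175309 UMIs. Of the called Ishikawa cells, 38.2% at 0 h and 52.4% to 55.8% at later times met the quality limits. Medians over all called cells were 10484 UMIs with a 7.29% mitochondrial share at 0 h. At later times they were 16193 to 18148 UMIs with 4.63% to 4.95%. Over kept cells they were 19122 UMIs with 4.12% at 0 h and 19616 to 21436 UMIs with 3.96% to 4.27% later. The control cells of that line thus stood apart before filtering, and a smaller share of them was kept. The part of this in the changes against 0 h was not tested. The 2 libraries shared 80 cell barcodes. Of the markers of origin, T-47D had GATA3, TRPS1, PIP, AZGP1 and SPDEF at 32.3 to 777 mean CPM. It had 0 UMIs of SOX17, PAX8, EMX2 and HOXA10, and HOXA11 at 0.407 mean CPM. Ishikawa had those 4 endometrial genes at 53.8 to 111 mean CPM, HOXA11 at 5.85, 1 UMI of GATA3 and 0 of PIP, with TRPS1 at 17.4 and the fibroblast gene COL1A1 at 23.4. The epithelial genes EPCAM, KRT8, KRT18 and CDH1 had at least 67.4 mean CPM in both lines. Of these, KRT8 was past the fold rule used below in T-47D at 8 h (log2 change 0.72) and KRT18 at 4 h (0.59), and none was in Ishikawa. None of the 3 blood and 3 endothelial markers reached 10 CPM in either.

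Levels are given as CPM, the UMIs of a gene when the pool is scaled to 1000000, with 95% exact Poisson intervals, and ratios with 95% exact intervals of the 2 counts. These intervals hold the error of counting and nothing of the spread among cultures or cells. Log2 changes are log2((CPM + 1)/(CPM at 0 h + 1)), which understates the change of low genes. A gene whose 4 pools of a line averaged 10 CPM or more was called higher or lower when this change reached 1.5-fold, 0.585 on the log2 scale. In Ishikawa 4 members reached the minimum, CRABP2 and DHRS3 just above it at means of 11.3 and 10.9 CPM. In T-47D 2 members did, RDH11 and CRABP2, and RDH10 was the nearest below at 7.20.

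**Figure D1:**
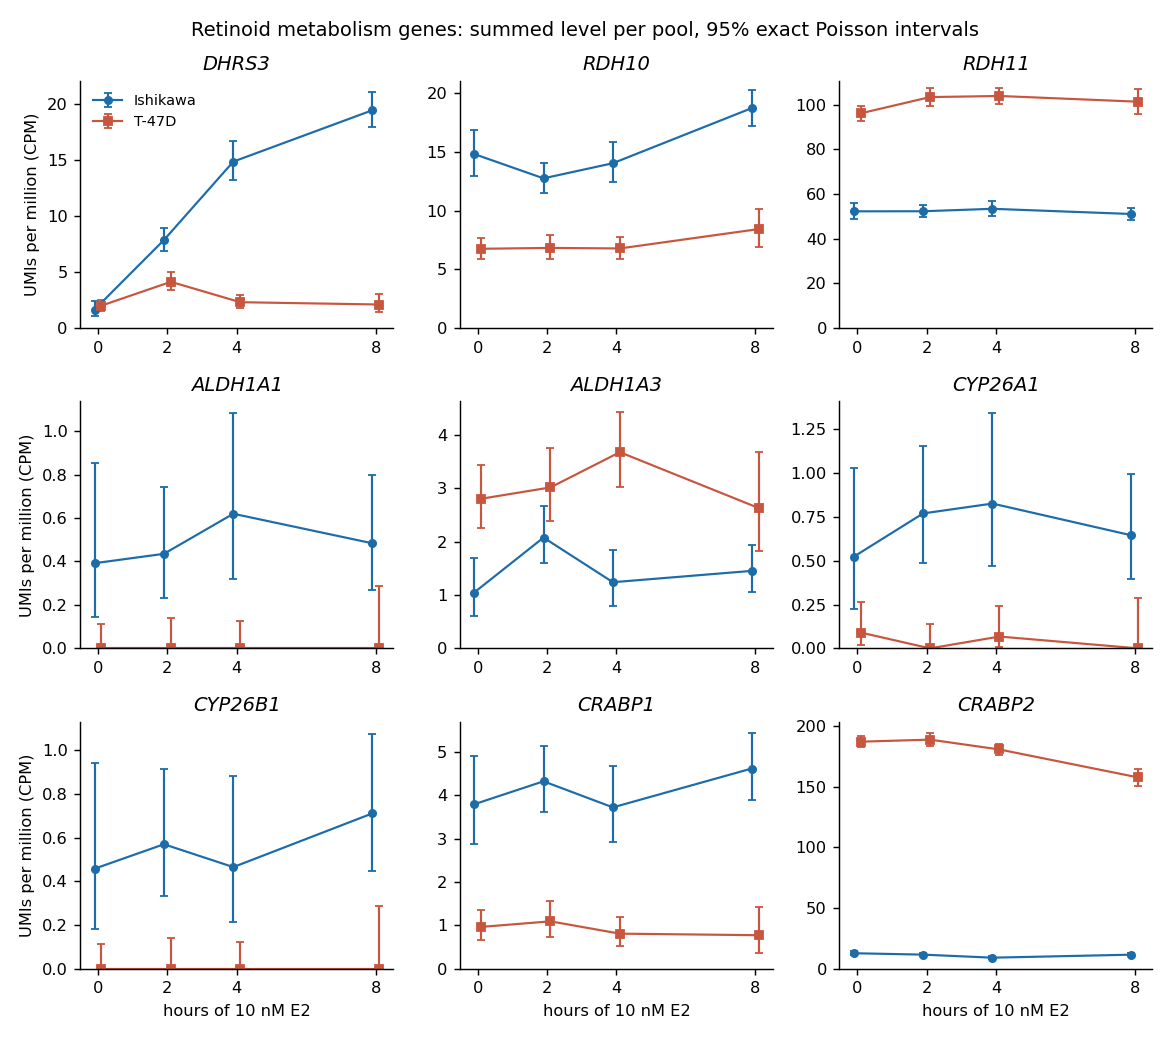
Level of each of the 9 members (CPM, vertical axis from 0, own scale in each panel) against hours of E2 in Ishikawa (circles) and T-47D (squares), 1 pool a point, with 95% exact Poisson intervals. DHRS3 in Ishikawa goes from 1.63 to 19.4 CPM, CRABP2 lies at 157 to 189 CPM in T-47D against 9.14 to 12.8 in Ishikawa, and ALDH1A1 and CYP26B1 lie at 0 in every T-47D pool.

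Among the enzymes that interconvert retinol and retinaldehyde, DHRS3 was higher in Ishikawa at each later time. The Ishikawa pools of 0, 2, 4 and 8 h held 25, 234, 287 and 601 DHRS3 UMIs, or 1.63 (1.06 to 2.41), 7.84 (6.86 to 8.91), 14.8 (13.2 to 16.6) and 19.4 CPM (17.9 to 21.0). None of these 4 intervals overlapped. Against 0 h the 2 h level was 4.80 times as high (3.17 to 7.56), the 4 h level 9.07 times (6.02 to 14.3) and the 8 h level 11.9 times (7.96 to 18.5). The log2 changes were 1.75, 2.59 and 2.95.

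The ratio of each DHRS3 level to that of the time before fell along the course. The times, 0, 2, 4 and 8 h, are not evenly spaced. The 4 h level of DHRS3 was 1.89 times that at 2 h (1.59 to 2.26), and the 8 h level 1.31 times that at 4 h (1.13 to 1.51). These steps do not use the 0 h pool. Among the 7885 Ishikawa genes that reached the minimum, the log2 change of DHRS3 ranked 4th at 2 h, 2nd at 4 h and 1st at 8 h, and since these changes led to the choice of the gene, the ranks are no evidence of their own. DHRS3 reached the minimum only through the later pools.

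In T-47D, DHRS3 started at a like level and lay above it at 2 h alone. Its 66, 109, 68 and 27 UMIs gave 1.99 (1.54 to 2.53), 4.11 (3.37 to 4.96), 2.29 (1.78 to 2.91) and 2.09 CPM (1.38 to 3.04) at 0, 2, 4 and 8 h. The 2 h level was 2.07 times that at 0 h (1.51 to 2.85), and the 4 h level was 0.558 times that at 2 h (0.406 to 0.762). At 4 and 8 h the ratios to 0 h were 1.15 (0.809 to 1.64) and 1.05 (0.645 to 1.67), with intervals that held 1. With a mean of 2.62 CPM the gene was under the minimum in this line, so its log2 change of 0.77 at 2 h, past the fold, was not called.

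Before E2 the lines could not be told apart in DHRS3, with Ishikawa at 0.821 times T-47D (0.496 to 1.32). Ishikawa was then 1.91 times T-47D at 2 h (1.51 to 2.42), 6.46 times at 4 h (4.95 to 8.55) and 9.28 times at 8 h (6.32 to 14.2). In order of level the 3 E2-treated Ishikawa pools came first, then T-47D at 2 h, and the other 4 pools, from 1.63 to 2.29 CPM, did not differ beyond their intervals.

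RDH10, which makes retinaldehyde from retinol, was present in both lines and differed little with time. In Ishikawa its 227, 381, 272 and 581 UMIs gave 14.8, 12.8, 14.0 and 18.7 CPM at 0, 2, 4 and 8 h. Only the 8 h pool lay apart, at 1.26 times 0 h (1.08 to 1.48) and 1.33 times 4 h (1.15 to 1.55), with a log2 change of 0.32 that did not reach the fold. In T-47D the levels were 6.75, 6.82, 6.78 and 8.43 CPM from 224, 181, 201 and 109 UMIs, and the 8 h ratio of 1.249 had an interval (0.984 to 1.58) that held 1. Ishikawa had 1.87 to 2.22 times the T-47D level at the 4 times.

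RDH11, a retinaldehyde reductase of broad expression, was flat over the whole Ishikawa pools. Its levels there were 52.3, 52.3, 53.4 and 51.1 CPM from 800, 1562, 1034 and 1583 UMIs, and the widest interval of a ratio to 0 h ran from 0.931 to 1.12. In T-47D they were 96.2, 103, 104 and 101 CPM from 3191, 2745, 3083 and 1311 UMIs. The T-47D ratios to 0 h were 1.08 (1.02 to 1.13) for 2 h, 1.08 (1.03 to 1.14) for 4 h and 1.05 (0.988 to 1.12) for 8 h. The T-47D level was 1.84 to 1.99 times that of Ishikawa.

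**Figure D2:**
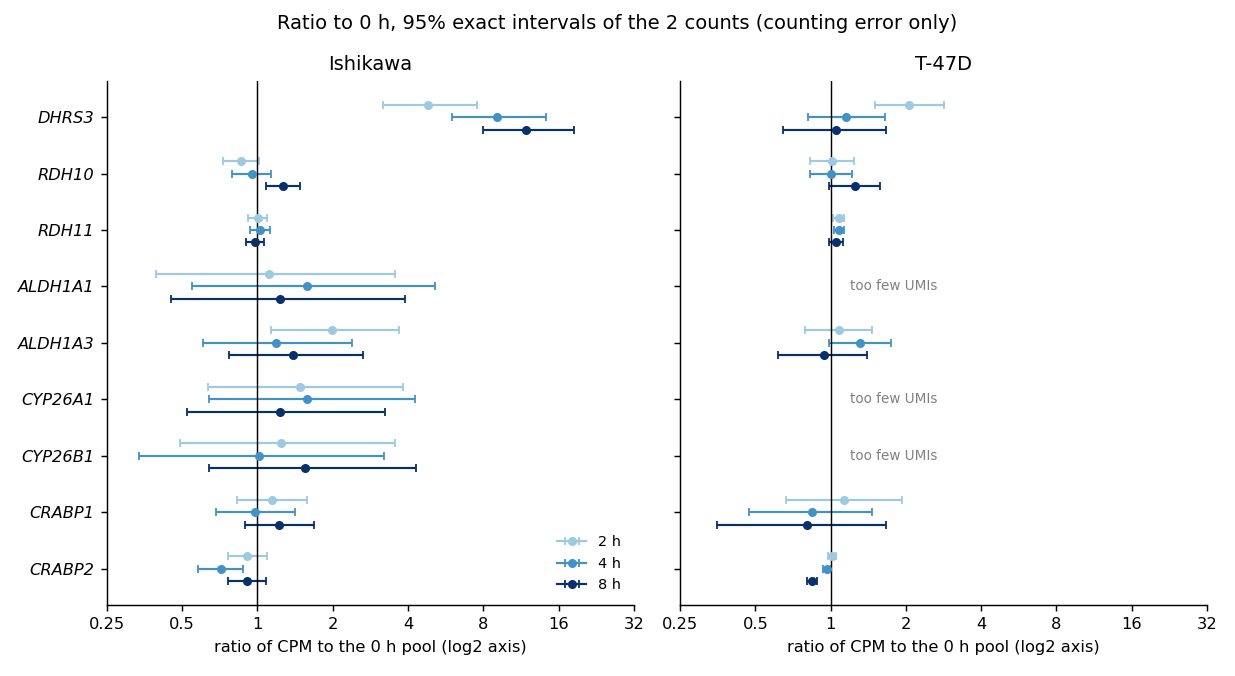
Ratio of each member's CPM at 2, 4 and 8 h to the 0 h pool of the same line (horizontal log2 axis, 1 marks no difference), with 95% exact intervals of the 2 counts. DHRS3 in Ishikawa lies at 4.80 to 11.9 and in T-47D at 2.07 and then near 1, and members with 3 UMIs or fewer in a pool have no point.

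The retinaldehyde dehydrogenases, which make retinoic acid, were rare. ALDH1A1 had 6, 13, 12 and 15 UMIs in Ishikawa at 0, 2, 4 and 8 h (0.392 to 0.620 CPM) and 0 in each T-47D pool. Over all times 45 of 4613 Ishikawa cells had a UMI of it and 0 of 4626 T-47D cells did, which by a floor of 3 counts allows up to 0.0649% of cells with a captured UMI and sets no limit on cells that express the gene. Against a floor of 3 UMIs per T-47D pool, ALDH1A1 was at least 2.09-fold to 6.13-fold higher in Ishikawa if the Ishikawa counts are taken as exact. With their counting error included, the exact lower limit of the ratio was 1.496 to 4.25.

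ALDH1A3 was the dehydrogenase found in both lines. Ishikawa held 16, 62, 24 and 45 UMIs (1.05, 2.08, 1.24 and 1.45 CPM) and T-47D 93, 80, 109 and 34 UMIs (2.80, 3.02, 3.68 and 2.63 CPM). The Ishikawa 2 h level was 1.99 times that at 0 h (1.13 to 3.69) and 4 h was 0.597 times 2 h (0.356 to 0.971), while the other ratios to 0 h in both lines had intervals that held 1. The size of this 2 h change varied with the cells used and with the UMIs drawn. Its log2 value was 0.59, but 0.28 with every called barcode and 0.72 with a lower upper limit on UMIs. It was 0.71 in cells under 1% GFP and 0.80 in cells without TOP2A and MKI67 UMIs. Thinning cells to 10000 UMIs, 1 random draw that leaves fewer UMIs, gave 0.27, and the mean over kept cells gave 0.68. T-47D had 1.45 to 2.97 times the Ishikawa level.

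The CYP26 hydroxylases, which degrade retinoic acid, were near the limit of detection in Ishikawa. CYP26A1 had 8, 23, 16 and 20 UMIs there (0.523, 0.770, 0.826 and 0.645 CPM) and CYP26B1 had 7, 17, 9 and 22 (0.457, 0.569, 0.465 and 0.710 CPM). Every ratio to 0 h of both genes had an interval that held 1, the widest reaching 4.30, so a difference of several fold was not detectable at this depth.

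T-47D held 3, 0, 2 and 0 UMIs of CYP26A1 and 0 of CYP26B1 in every pool. At 0 h CYP26A1 was 5.78 times higher in Ishikawa (1.39 to 33.8) on 8 against 3 UMIs. On the same floor and with the Ishikawa counts taken as exact, CYP26B1 was at least 3.06-fold to 5.06-fold higher in Ishikawa, and the exact lower limit of the ratio was 2.28 to 3.67. Each library holds 1 line, so no cell type that lacks these genes was at hand to set the share that free RNA gives.

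Of the cytosolic binding proteins, CRABP1 was low in both lines. Ishikawa had 58, 129, 72 and 143 UMIs (3.79, 4.32, 3.72 and 4.61 CPM) and T-47D 32, 29, 24 and 10 (0.965, 1.09, 0.809 and 0.774 CPM). No ratio to 0 h had an interval that left out 1. Ishikawa had 3.93 (2.51 to 6.25) to 5.96 times (3.15 to 12.7) the T-47D level.

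CRABP2 marked the line rather than the time. T-47D held 6201, 5003, 5352 and 2036 UMIs, or 187 (182 to 192), 189 (183 to 194), 181 (176 to 185) and 157 CPM (151 to 164) at 0, 2, 4 and 8 h. Ishikawa held 196, 348, 177 and 360 UMIs, or 12.8 (11.1 to 14.7), 11.7 (10.5 to 12.9), 9.14 (7.84 to 10.6) and 11.6 CPM (10.4 to 12.9). The lowest T-47D pool thus lay far above the highest Ishikawa pool, and the ratio of T-47D to Ishikawa was 14.6 at 0 h (12.7 to 16.9) and 13.6 to 19.7 over the 4 times.

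Within each line 1 later pool of CRABP2 had a ratio to 0 h whose interval left out 1. In T-47D it was the 8 h pool, at 0.843 times 0 h (0.801 to 0.886) and 0.872 times 4 h (0.829 to 0.918). In Ishikawa it was the 4 h pool, at 0.714 times 0 h (0.579 to 0.879), and the 8 h level was again 1.27 times that at 4 h (1.06 to 1.53). The log2 changes of -0.25 and -0.45 did not reach the fold. In 1 random thinning of cells to 10000 UMIs, which left out shallower cells, the Ishikawa value was -0.82 and did. That draw leaves fewer UMIs than the whole pools. With the mean over kept cells, 14.6 CPM at 0 h and 10.1 at 4 h, the gene was not called.

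**Figure D3:**
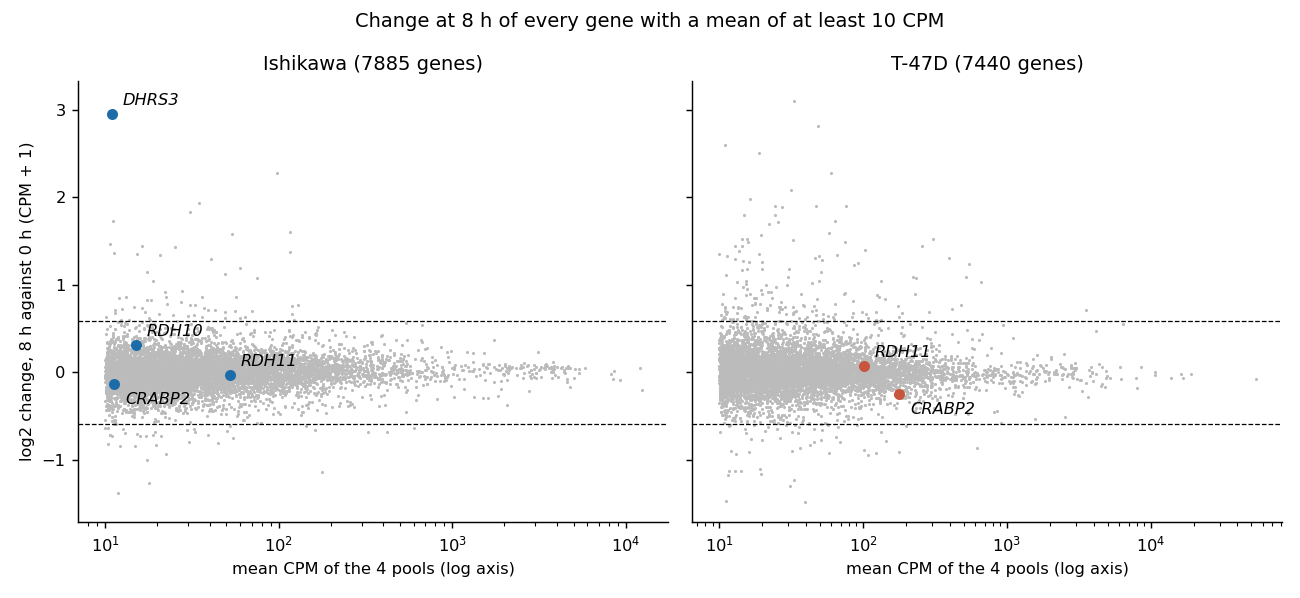
Log2 change at 8 h against 0 h (vertical axis) by mean CPM of the 4 pools (log axis) for the 7885 Ishikawa and 7440 T-47D genes that reached the minimum, with members as large points and the fold of 1.5 as dashed lines. DHRS3, whose change led to the choice of the set, lies at 2.95 in Ishikawa, above every other gene plotted for that line. The other members that reached the minimum lie between the dashed lines.

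By the fold rule, 1 of the 4 Ishikawa members that reached the minimum was called higher at 2, 4 and 8 h, DHRS3 each time, beside 0.786%, 0.634% and 0.812% of all Ishikawa genes tested. None of the 4 was called lower, beside 0.659%, 0.621% and 0.469% of all genes. Neither of the T-47D members was called higher, beside 1.22%, 1.33% and 2.34% of all T-47D genes, or lower, beside 0.417%, 0.363% and 0.726%. The choice of the members used these contrasts, so nothing is read from the counts. Ishikawa members that reached the minimum had median log2 changes of -0.06, -0.02 and 0.14, beside -0.01, -0.01 and 0.00 for all genes. The T-47D medians were 0.06, 0.03 and -0.09, beside 0.01, -0.01 and 0.01.

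To see how the summed levels were spread over cells, every cell was thinned to 10000 UMIs, and shallower cells were left out. This kept 759 of 776, 1443 of 1480, 879 of 892 and 1442 of 1465 Ishikawa cells at 0, 2, 4 and 8 h and every T-47D cell. The share of Ishikawa cells with a DHRS3 UMI was then 1.71% at 0 h (95% exact Clopper-Pearson interval 0.915% to 2.91%), 6.93% (5.67% to 8.36%) in the 2 h pool, 13.5% (11.3% to 15.98%) in the 4 h pool and 15.0% (13.2% to 16.9%) in the 8 h pool. At the cells' own depth 23 of 776 cells had a UMI at 0 h and 375 of 1465 at 8 h. The UMIs per cell with any also differed, from 1.09 at 0 h to 1.60 at 8 h, and the highest count in a cell was 2 at 0 h and 9 at 8 h.

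The thinned share for DHRS3 in T-47D was 2.23%, 3.98%, 1.86% and 1.99% at 0, 2, 4 and 8 h. Its 2 h interval (2.95% to 5.24%) lay above that at 4 h (1.21% to 2.74%) and overlapped that at 0 h (1.55% to 3.102%). If UMIs fell on cells at random, 17.7% of Ishikawa cells would hold a DHRS3 UMI at 8 h, above the interval of the observed 15.0%, and 15.6% at 4 h, within the interval of the observed 13.5%.

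CRABP2 was more unevenly spread over cells than most genes of like mean. At 0 h its coefficient of variation was 2.90 in Ishikawa and 0.832 in T-47D, and the residual of this noise on the mean was at percentile 98.9 and 94.8 of genes of like mean, in the top 20% (High noise) in both lines. The 1% of Ishikawa cells with most CRABP2 held 18.4%, 21.0%, 16.4% and 22.8% of its UMIs at 0, 2, 4 and 8 h, and 1 cell at 8 h held 27 UMIs. In T-47D the same 1% held 4.40% to 5.24%. These shares depend on the mean, and for the rarer DHRS3 the 1% held 40.0% of its Ishikawa UMIs at 0 h and its coefficient of variation was 6.43.

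Thinned shares for CRABP2 were 75.7%, 77.7%, 75.4% and 68.2% of T-47D cells, the last (64.1% to 72.0%) below the interval at 0 h (73.4% to 77.8%). Cells with 4 or more UMIs made up 15.2% at 0 h and 9.40% at 8 h. In Ishikawa the shares were 11.7%, 10.2%, 7.62% and 10.5%, and the 4 h pool had no thinned cell with 3 or more UMIs.

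**Figure D4:**
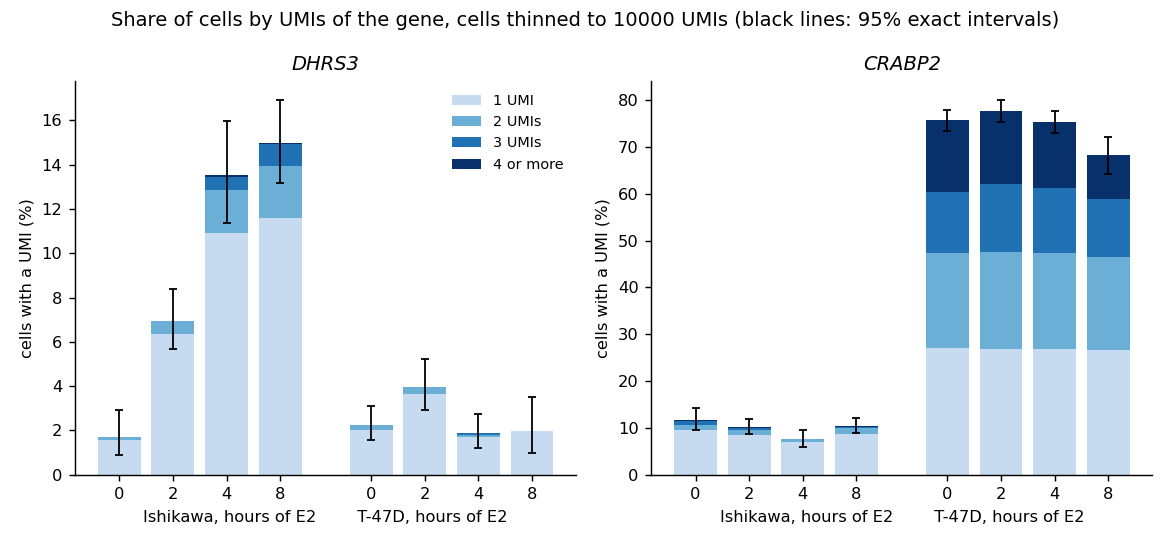
Share of cells with 1, 2, 3 or at least 4 UMIs of DHRS3 (left) and CRABP2 (right) in each pool, after thinning every cell to 10000 UMIs, with 95% exact Clopper-Pearson intervals of the whole share as black lines. The DHRS3 share in Ishikawa goes from 1.71% to 15.0%, and the CRABP2 share in T-47D is 75.7% at 0 h and 68.2% at 8 h.

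Noise at 0 h was also High for RDH10 (percentile 83.7) in Ishikawa, Medium for RDH11 there (40.9) and Low for RDH11 in T-47D (18.6). DHRS3 in Ishikawa was put at percentile 89.5, also High, but nothing is read from it. The gene entered the noise model only through its later pools, so it was not set beside genes of like 0 h mean. The DHRS3 value rests on 25 UMIs, 40.0% of them in 8 cells. In thinned 0 h cells, 1.71% held a DHRS3 UMI, against 1.83% if UMIs fell on cells at random. Thinned shares for RDH11 were 38.0% to 40.7% in Ishikawa and 55.5% to 63.5% in T-47D. Those for RDH10 were 12.4% to 16.5% and 6.10% to 7.04%.

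Whether members were found in the same cells was described by pairs. Over 19 pairs and pools in which both members were in at least 10% of cells, Spearman's rho across cells lay between -0.11 and 0.06, weak values in sparse counts from which nothing is read. At 8 h in Ishikawa, 2.29% of thinned cells held DHRS3 and RDH10 together, against 2.47% from the product of the shares.

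Cells were further split by 2 marks, the share of a cell's UMIs from the GFP reporter, a feature of the Ishikawa matrix, and UMIs of the proliferation genes TOP2A and MKI67. DHRS3 at 8 h was 26.3 CPM in the 564 cells with at least 1% GFP and 15.4 in the 901 others, a ratio of 1.71 (1.46 to 2.02), and the ratios at 0, 2 and 4 h were 1.13 (0.463 to 2.67), 1.59 (1.22 to 2.07) and 1.15 (0.898 to 1.46). In the 901 and 446 cells under 1% GFP the 8 h level was still far above 0 h, 15.4 against 1.55 CPM, but the mean of their 4 pools, 9.37 CPM, was under the minimum, so DHRS3 would not be called in them. The part of GFP in the level was not tested. ALDH1A3 was also higher in cells with GFP at 0 h (3.15, 1.01 to 11.6), 2 h (1.98, 1.16 to 3.37) and 4 h (2.74, 1.12 to 7.09), on 5 to 32 UMIs a side. RDH11 was lower in them at 2 h (0.865, 0.776 to 0.964) and 8 h (0.886, 0.797 to 0.984), and CRABP1 at 2 h (0.491, 0.309 to 0.756). CYP26A1 at 4 h had 15 UMIs in cells with GFP and 1 in the others, 2.05 against 0.0831 CPM, too few for a ratio. Its ratios at 2 h (2.41, 0.977 to 6.14) and 8 h (2.12, 0.797 to 5.78) had intervals that held 1.

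With TOP2A or MKI67 UMIs against without, DHRS3 had ratios of 0.742 (0.309 to 1.90), 0.858 (0.646 to 1.15), 1.41 (1.04 to 1.94) and 0.978 (0.819 to 1.17) in Ishikawa. The order of the 4 Ishikawa pools was the same in cells without either gene, at 2.00, 8.73, 11.3 and 19.7 CPM. In T-47D all 4 of its intervals held 1. Among the other members, RDH11 in Ishikawa was higher in cells with either gene at 2 h, 1.32 (1.17 to 1.49), and at 8 h, 1.13 (1.01 to 1.26). Ishikawa cells without either gene had RDH11 at 52.8, 42.6, 49.0 and 46.9 CPM at 0, 2, 4 and 8 h, a course less flat than that of the whole pools. In Ishikawa cells with either gene ALDH1A3 was lower at 4 h, 0.320 (0.131 to 0.779), and 8 h, 0.519 (0.277 to 0.985), and CRABP1 at 0 h, 0.551 (0.318 to 0.966). In T-47D RDH10 was higher at 4 h, 1.39 (1.05 to 1.86), and CRABP2 lower at 2 h, 0.915 (0.862 to 0.972), and 4 h, 0.930 (0.879 to 0.983). With so many intervals, some leave out 1 by counting error alone.

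Other genes of vitamin A handling were described by list. Of 28 genes for carriers, esterification, oxidation and reduction, 10 reached the minimum in Ishikawa and none of those was called. At 2, 4 and 8 h, 0.786%, 0.634% and 0.812% of all Ishikawa genes tested were called higher. Called lower were 0.659%, 0.621% and 0.469%. The list medians were 0.18, 0.06 and 0.02, beside -0.01, -0.01 and 0.00 for all genes. The level of FABP5 differed widely between the lines. FABP5, which carries retinoic acid to another receptor, was at 390 mean CPM in Ishikawa and 0.442 in T-47D.

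In T-47D 7 of the 28 reached the minimum. Of these 1 was called, RBP7, a retinol-binding protein, higher at 8 h, beside 2.34% of all T-47D genes tested. Its levels were 19.2, 24.4, 28.9 and 34.4 CPM at 0, 2, 4 and 8 h, a log2 change of 0.81 at 8 h. The list medians were 0.02, -0.03 and 0.09, beside 0.01, -0.01 and 0.01 for all genes. In Ishikawa RBP7 lay between 77.3 and 86.2 CPM.

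Of the 7 receptors, RARA, the retinoic acid receptor alpha, was the one called in both lines. In T-47D it was at 15.2, 41.9, 29.2 and 33.5 CPM at 0, 2, 4 and 8 h, higher at each later time with log2 changes of 1.41, 0.90 and 1.09. In Ishikawa it was at 8.49, 13.8, 10.6 and 11.6 CPM and was called at 2 h alone (0.64), as was PPARD (0.67), the receptor that FABP5 serves, from 8.30 to 13.8 CPM.

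At 2 h 2 of the 5 Ishikawa receptors that reached the minimum were called higher, beside 0.786% of all genes. In T-47D 1 of 4 was called higher at each later time, beside 1.22%, 1.33% and 2.34%. The receptor medians were 0.46, 0.17 and -0.07 in Ishikawa, beside -0.01, -0.01 and 0.00 for all genes. In T-47D they were -0.12, -0.09 and -0.14, beside 0.01, -0.01 and 0.01. The list was chosen with earlier results known, so nothing is read from its counts. RARB had at most 8 UMIs in a pool and RXRG 0. None of RARG, RXRA and RXRB was called in either line.

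Of 20 symbols listed for known targets of retinoic acid, 19 were features, 10 reached the minimum in Ishikawa and 4 in T-47D. ELF3, an epithelial transcription factor, was higher at 2 h in Ishikawa (1.14), at 66.2, 147, 94.6 and 69.4 CPM over the course, and in T-47D it had 60.02, 61.5, 43.4 and 39.7 CPM, a log2 change of -0.58 at 8 h that fell just short of a call. NRIP1, a corepressor of nuclear receptors that estrogen also induces, was called higher at 2 h in Ishikawa (0.60), from 31.2 to 48.0 CPM, and at 2 and 8 h in T-47D (0.90 and 0.70), from 23.2 to 44.3 and 38.3 CPM. Called higher were 2 of the 10 Ishikawa genes at 2 h, beside 0.786% of all genes. In T-47D 1 of the 4 was at 2 h and at 8 h, beside 1.22% and 2.34%. The list medians were 0.08, -0.04 and 0.03 in Ishikawa, beside -0.01, -0.01 and 0.00 for all genes. In T-47D they were 0.05, 0.06 and -0.08, beside 0.01, -0.01 and 0.01.

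Among 8 other genes named DHRS, 6 reached the minimum in Ishikawa and 5 in T-47D. DHRS2, a dicarbonyl reductase, was lower in Ishikawa at 2 and 4 h, at 66.1, 23.2, 42.9 and 73.4 CPM, with log2 changes of -1.47 and -0.61 and 0.15 at 8 h. Its course thus ran opposite to that of DHRS3 at 2 h and was back near its 0 h level at 8 h. No other gene of the list was called. The 1 of 6 Ishikawa genes called lower at 2 and 4 h stands beside 0.659% and 0.621% of all genes. The list medians were -0.06, -0.22 and -0.09 for Ishikawa, beside -0.01, -0.01 and 0.00 for all genes. For T-47D they were -0.04, 0.01 and 0.08, beside 0.01, -0.01 and 0.01.

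The Ishikawa genes whose log2 changes were most like those of DHRS3 were G0S2, NRTN and TGFA. Their root mean square differences from DHRS3 over 2, 4 and 8 h were 0.70, 0.82 and 0.87 on the log2 scale, none of them small beside the changes. G0S2 had changes of 2.67, 2.98 and 2.28, NRTN of 1.49, 1.62 and 1.94, and TGFA of 1.48, 1.60 and 1.84. DHRS3 was below G0S2 at 2 and 4 h and above all 3 genes at 8 h.

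**Figure D5:**
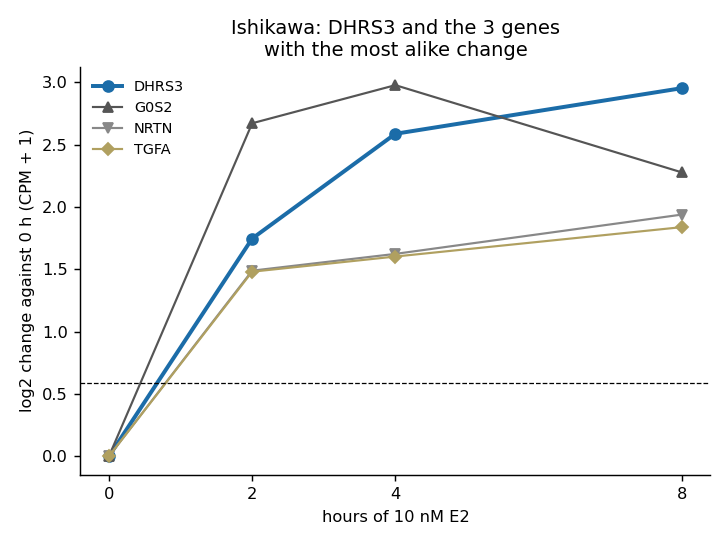
Log2 change against 0 h (CPM + 1, vertical axis) by hours of E2 in Ishikawa for DHRS3 (thick line) and the 3 genes with the smallest root mean square difference from it, 1 pool a point, with the fold of 1.5 as a dashed line. DHRS3 goes from 1.75 at 2 h to 2.95 at 8 h, while G0S2 has its highest value, 2.98, at 4 h.

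Likeness of level over the 8 pools of both lines gave other names. By Pearson's r of log2(CPM + 1), C5orf22, POLR3B and SPOUT1 were nearest to DHRS3 (0.963, 0.947 and 0.940) and VPS53, NMT1 and GMDS to RDH10 (0.994, 0.994 and 0.993). NINJ1, HARS2 and ARMCX6 were nearest to RDH11 (0.9997, 0.9994 and 0.9994), and SLC22A23, COX15 and AC129926.1 to CRABP2 (0.9997, 0.9996 and 0.9996). Pearson's r takes no account of the size of a difference. In Ishikawa C5orf22 lay between 9.47 and 13.5 CPM, POLR3B between 12.9 and 16.0 and SPOUT1 between 15.1 and 18.3, while DHRS3 went from 1.63 to 19.4. These 3 genes thus did not share the size of the DHRS3 change. The pools of a line share a library, and the values for RDH10, RDH11 and CRABP2 rest mainly on the gap between the lines.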

How the data were processed

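The deposited matrices hold UMI counts per gene and cell barcode, which the authors made with Cell Ranger 3.1.0, on hg38 per the submitters' processing notes. A deposited table gives the time point called for each barcode from its MULTI-seq tag. Barcodes with 1 time point were used when they met the study's quality limits, for Ishikawa 8500 to 35000 UMIs with 2700 to 6000 genes and less than 7% mitochondrial UMIs, for T-47D 7500 to 40000 UMIs with 1500 to 6000 genes and less than 20%. Tag doublets were left out and no other doublet caller run. All T-47D calls lay within them. Counts were summed per line and time and scaled to the pool total without further factors. With 1 pool for each line and time, no test was run. GFP and tdTomato were left out of the genes tested. The members and lists were chosen with earlier results of these data known. Genes named beside the members were, by rule, the listed genes past the fold rule (at most 4 per list and line) and the 3 genes most like each member that reached the minimum. FABP5, RARG, RXRA, RXRB, RARB and RXRG were named after their values were seen. Noise used mgcv 1.9.3 in R 4.3.3, sums used Python 3.11.15 with scipy 1.17.1, and alternative scaling used edgeR 4.0.16 (TMM) and DESeq2 1.42.0 (median of ratios).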

Additional observations from a re-analysis of the deposited data

How the results depend on the processing

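The number of members past the fold rule was 1 in Ishikawa at 2, 4 and 8 h and 0 in T-47D. A minimum of 50 CPM made the Ishikawa count 0 at all 3 times, because DHRS3 has a mean of 10.9 CPM, and so did cells under 1% GFP, in which its mean was 9.37 CPM and its log2 changes were 1.55, 2.56 and 2.68. With no minimum the count was 2 in Ishikawa at 2 h, with ALDH1A3 added, and 1 in T-47D at 2 h, DHRS3. At 4 h in Ishikawa it was 2 with a smaller fold and 2 with cells thinned to 10000 UMIs, with CRABP2 added as lower, at -0.82 when thinned against -0.45. TMM and median-of-ratios factors, totals without reporters and mitochondrial genes, every called barcode, a lower upper limit on UMIs, a fold of 2, cells with no TOP2A or MKI67, the mean over cells and the other pseudocounts left every count as it was. Over 477 recomputed log2 changes, 466 stayed within the counting interval, 11 did not and 0 called values changed sign. The called values were those of DHRS3 in Ishikawa alone. Some uncalled values did change sign, and RDH11 at 2 h in Ishikawa kept its sign in 5 of 11 alternatives. The counting intervals of rare members were wide, and in T-47D every called barcode was the main set of cells, so these counts are no measure of stability. The DHRS3 changes in Ishikawa ran from 0.95 to 2.19 at 2 h, 1.58 to 3.11 at 4 h and 1.88 to 3.49 at 8 h, the ends set by pseudocounts of 5 and 0.1. At the cells' own depth 53 of 60 shares lay outside the interval of the thinned share. No paired analysis was possible because each line and time has 1 pool, and leaving out a replicate was not possible for the same reason. Culture-to-culture spread could not be measured.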
